A study of Mus musculus with 9 samples.

Results

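The nuclear genes of the respiratory chain were taken from the count table by their symbols: names beginning with Nduf and a subunit letter and number, Cox4 to Cox8, Uqcr or Atp5, and Sdha to Sdhd, without pseudogene rows. The rule found 84 of the 46517 gene rows, and 4 further matches were left out as pseudogene rows. Complex I, which takes electrons from NADH, had 35 members. Complex II, succinate dehydrogenase, had 4, complex III 8, complex IV, cytochrome c oxidase, 19, and complex V, the ATP synthase, 15. Ndufa4 and Ndufa4l2 carry complex I names and were counted with complex IV, where the Ndufa4 protein is known to sit. The remaining 3, Atp5s, Atp5sl and Cox7a2l, are not core subunits and were set apart as accessory. The symbol rule does not take in every nuclear component of the chain, and Ndufab1, Cyc1, Cycs, Usmg5, Atpif1 and 2010107E04Rik were followed as a separate list.

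RNA was measured by Smart-seq2, a full-length single-cell method without molecular identifiers, in 1235 cells from microvascular fragments of adult mouse brain that had been dissociated and sorted into plates. Each cell had 1 of 9 type labels, abbreviations given without their meaning: aEC (116 cells), capilEC (787), vEC (45), CP-EC (17), PC (54), aSMC (41), vSMC (29), FB (9) and MG (137). Strain, age, sex and number of animals are not given in the sources used here, no treatment is named, and each label was deposited as 1 sample. There were therefore no replicates of a type and no test, and what follows are measured differences.

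The reads of all cells with a label were added up and divided by that type's reads, per 1000000 (CPM), so a level is a share of the RNA read in those cells and not an amount per cell. The median cell had between 158325 reads (PC) and 269635 reads (aSMC). Intervals are exact Poisson 95% intervals, which cover counting error only, since PCR copies of a molecule cannot be recognised in these libraries. A second description of spread comes from 4 plates, read from the prefix of each cell's name and given for a type where the plate held at least 5 of its cells. Plates are not replicates of a type, and the labels do not say whether they came from separate animals. FB had no such plate and CP-EC only 1, so their values have no spread between plates.

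The labels were read against marker lists. Summed endothelial markers were at 13585 to 19715 CPM in aEC, capilEC, vEC and CP-EC. Mural markers were at 18357 to 25774 CPM in PC, aSMC and vSMC, which are called mural types below. MG held 36565 CPM of the microglia list and FB 11114 CPM of the fibroblast list, in which Dpt was at 0. The mural types also held endothelial marker reads, 4996 CPM in PC, 4206 in vSMC and 1725 in aSMC, with all 15 genes of that list detected in each. FB held 5881 CPM of the mural list. The sources used here do not say how labels were assigned, so a gene used for that step is no independent evidence of a type.

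As background, the respiratory chain of the inner mitochondrial membrane passes electrons from NADH and succinate to oxygen and uses the resulting proton gradient to make ATP. Its complexes join a few subunits encoded in mitochondrial DNA to many encoded in the nucleus, except for complex II, which is wholly nuclear. Most nuclear subunits are made in every tissue, but some have isoforms restricted to certain tissues. Cox4i2 is an isoform of the complex IV subunit Cox4i1, and Ndufa4l2 is a paralog of Ndufa4. Both are known as transcripts raised by low oxygen in other settings and as genes of perivascular cells in brain.

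Nearly all members were expressed in all types. Of the 84, 81 had at least 1 read, all of them over 5 CPM in some type, and 73 were over 5 CPM in all 9 types. The testis and muscle isoforms Cox7b2, Cox8b and Cox8c had no read. The summed level of the members was 15652 CPM in aEC (plates 12682 to 17300), 15903 in capilEC (13490 to 18652) and 19446 in vEC (16108 to 21435). In the mural types it was 21300 CPM in PC (16276 to 24405), 26028 in aSMC (23627 to 29495) and 23783 in vSMC (16122 to 30329). CP-EC stood at 18850 and FB at 18075 CPM. MG was lowest at 8958 CPM, and its 4 plates, from 8153 to 9637 CPM, lay below every plate of every other type. The aSMC plates lay above every plate of the endothelial types, while those of PC and vSMC overlapped with them.

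**Figure D1:**
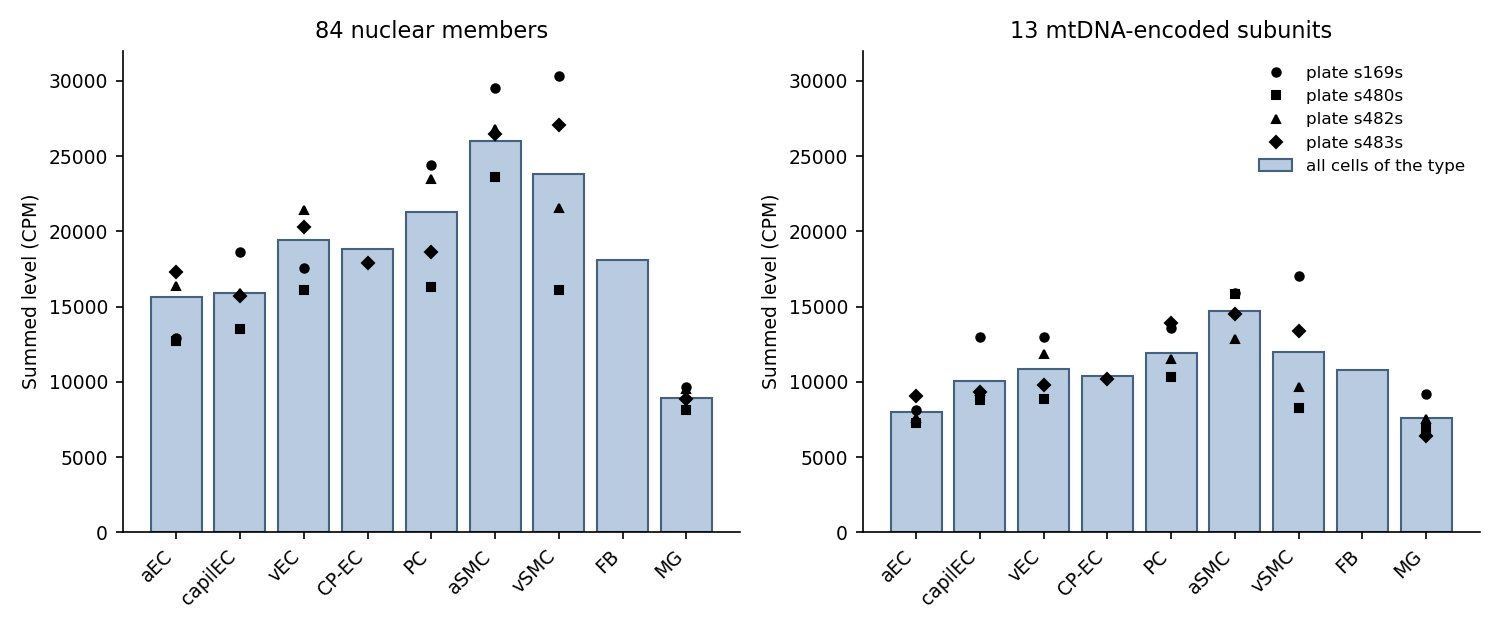
Summed level in CPM of the 84 nuclear members (left) and of the 13 subunits encoded in mitochondrial DNA (right) in each type label; bars are all cells of the type and points are plates with at least 5 cells of it. MG is lowest at 8958 CPM and aSMC highest at 26028 CPM on the left, and the same types are the ends of the right panel at 7576 and 14675 CPM.

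The same order was seen cell by cell. The median cell held 7993 CPM of member transcripts in MG (quartiles 6724 to 10506), 15373 in capilEC (12475 to 18467) and 26906 in aSMC (22171 to 29116), so the quartile ranges of these 3 types did not overlap. The 13 subunits encoded in mitochondrial DNA differed less: 7576 CPM in MG, 8027 in aEC, 10039 in capilEC and 14675 in aSMC, with MG plates (6421 to 9211) overlapping those of aEC (7268 to 9025). Nuclear member reads were 1.18 times the mitochondrially encoded reads in MG (plates 1.05 to 1.38) and 1.58 times in capilEC (1.44 to 1.69), while the other types lay between 1.67 in FB and 1.99 in vSMC. Among the mitochondrially encoded genes mt-Co2 was listed at 0 in all types and mt-Co3 stayed under 3 CPM, so that sum leaves out most of 2 abundant subunits.

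Most members varied less over types than the median expressed gene. The distance from a member's lowest to its highest type had a median of 1.78 units of log2(CPM + 5), against 2.92 for the 15494 genes over 5 CPM in some type. A member's levels over the 9 types correlated with the median member at a median Pearson r of 0.79, which describes 9 types that share libraries and depth. The median member is drawn from these same members, so r is not independent of them, and no value for other genes was computed. Sdhb, the iron-sulphur subunit of complex II, had the smallest distance, from 220 CPM in capilEC to 328 in CP-EC. By far the greatest distances belonged to Ndufa4l2 (7.42) and Cox4i2 (6.82), followed by Ndufs1 (5.23) and Cox6b2 (4.62). aSMC was the highest type for 29 of the 81 expressed members and the lowest for 0. MG was the lowest for 56 and the highest for 1, Cox6a2. No member exceeded its next-highest type 4-fold, a mark that 8.76% of all expressed genes reached.

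**Figure D2:**
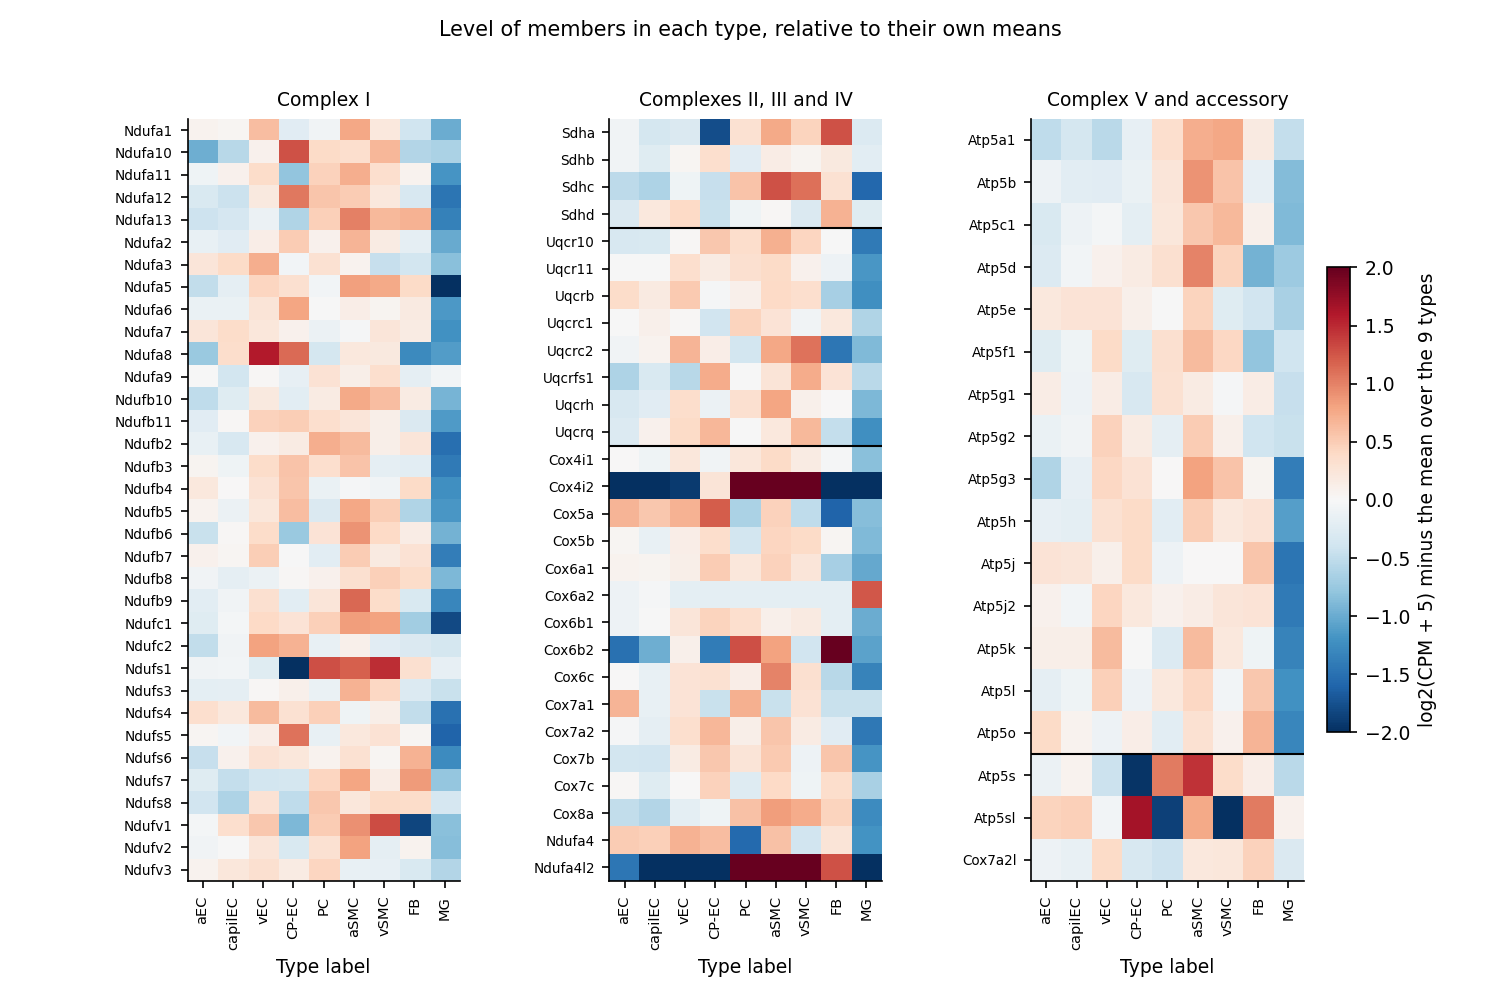
Level of 80 of the 81 expressed members in each type label, as log2(CPM + 5) minus the member's mean over the 9 types, grouped by complex with the colour scale ending at 2 in either direction. The MG column is blue for most members, and Cox4i2 and Ndufa4l2 stand out in the 3 mural columns.

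Levels were also taken per kilobase of 1 annotated transcript for each member, as a mean over types. The highest were then Ndufa7 in complex I (556 CPM per kb), Sdhb in complex II (229) and Uqcrh in complex III (532). Cox8a was highest in complex IV (1009) and Atp5j in complex V (646). These ranks depend on the length used. Ndufa7 had 528 bases in that transcript and 1828 over all annotated exons, while Ndufa2 (429 CPM per kb) had 572 in both. At the low end stood the muscle isoforms Cox7a1 (5.61) and Cox6a2 (1.54). Genomic copies could have taken reads from some members: 21 of the 83 with a transcript in the GENCODE M21 annotation had a pseudogene copy at 95% identity or more. The level counted on such copies was at most 0.658% of that of a member and its copies together, for Cox7c. Copies without a row added nothing, and Atp5l had 9 copies of which 5 had a row. How reads that fit both a member and a copy were handled is not given, so this sets no limit on reads lost.

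Mural types were first set against the mean of aEC, capilEC and vEC. The members' median log2 difference was 0.31 (plates 0.05 to 0.52), against -0.03 over all 12714 measured genes, and 60 of 79 measured members were higher in the mural mean. At least 2-fold higher were 10 members, a mark that 17.3% of all genes reached, and 0 were at least 2-fold lower, against 16.9% of all genes (34.3% in either direction). The share past 2-fold upward, 10 of 79, was thus no larger than the background, and the shift lay in the many small differences. The median was above 0 in each complex, at 0.39 in complex I, 0.42 in II, 0.28 in III, 0.23 in IV and 0.10 in V. The 10 measured mitochondrially encoded subunits were all higher (median 0.40, none past 2-fold), as were the 6 chain components that the symbols do not take in (median 0.52). The 74 cytosolic ribosomal proteins had a median of -0.30, with 4 above 0.

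The 10 members past 2-fold included parts of complexes I, II, IV and V. Sdhc, a membrane anchor of succinate dehydrogenase, stood at 505, 834 and 734 CPM in PC, aSMC and vSMC, and at 235, 220 and 320 CPM in aEC, capilEC and vEC. By plate it ran from 444 to 1529 CPM in the mural types and from 131 to 416 CPM in the endothelial types, so the 12 mural plate values lay above the 12 endothelial ones. Cox8a, a small subunit of complex IV, was at 754 to 902 CPM in the mural types and at 334 to 438 CPM in the endothelial types, and Atp5a1, the alpha subunit of the ATP synthase head, averaged 1043 against 487 CPM. Sdhc, Cox8a, Atp5a1 and Cox4i2 were the only 4 of 79 members whose plate values did not overlap in this direction, against 0.606% of all genes, and 0 members did so in the other direction (0.606% of all genes). Ndufa13, a subunit of complex I, was at 448 against 220 CPM (1.01) and higher on all 4 plates, with 0.94 when plate s480s was left out.

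Other members past 2-fold had less even support. Ndufs1, the largest complex I subunit, averaged 235 CPM in the mural types and 83.5 in the endothelial types, but its plate differences ran from -1.04 to 4.10, and vSMC cells of plate s480s held none of its reads. Cox6b2, the testis isoform of a complex IV subunit, reached 29.3 CPM in PC from 2 cells, of which 1 held 73.2% of the reads. Atp5s, a factor of ATP synthase, stood at 37.4 CPM in PC from 5 cells and at 51.0 CPM in aSMC from 9 cells. Without plate s169s the mural differences of Ndufs1 and Atp5s were 0.64 and 0.65, and without s482s that of Cox6b2 was 0.61. Leaning the other way were Atp5sl (-0.80), Cox5a (-0.78), Ndufa4 (-0.76), Ndufa8 (-0.66) and Ndufa3 (-0.46), none of them past 2-fold over all cells (Atp5sl was at -1.84 without plate s482s), with Cox5a, Ndufa4, Ndufa8 and Ndufa3 lower in the mural mean on all 4 plates.

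**Figure D3:**
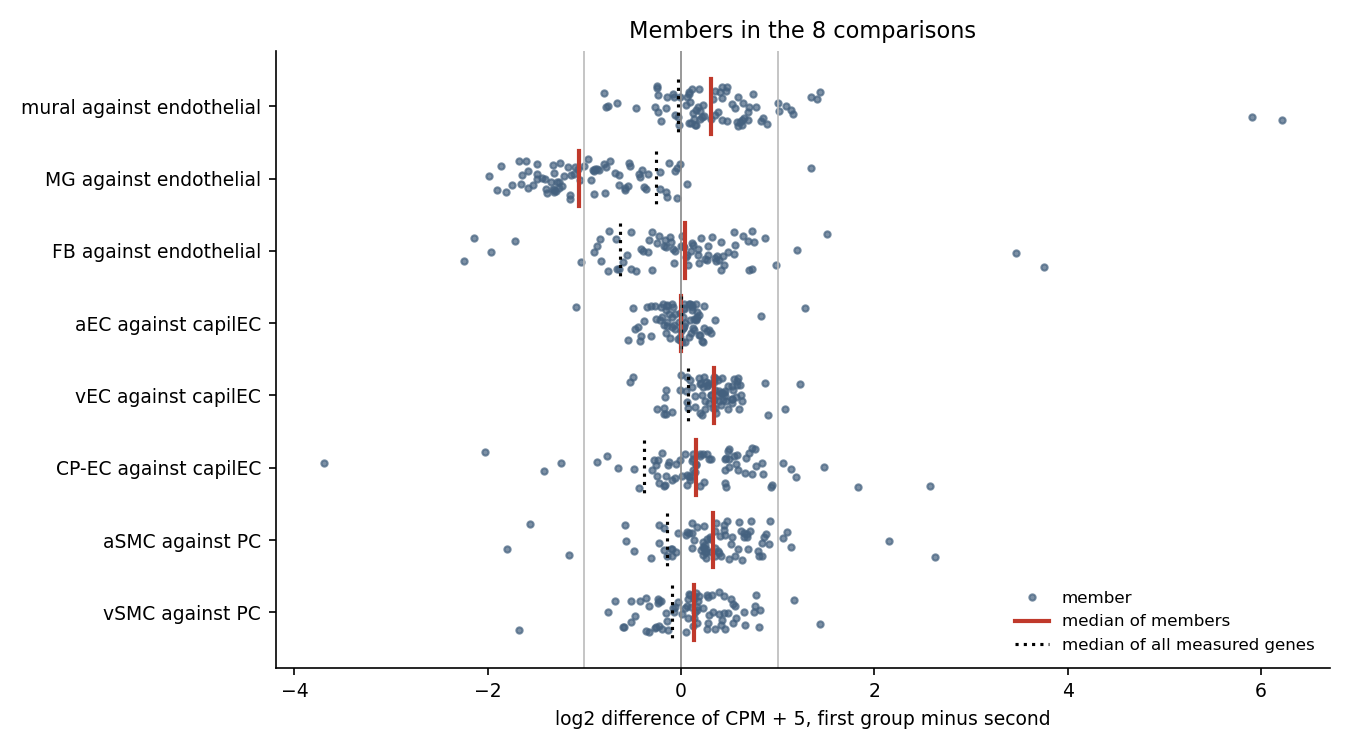
Log2 difference of CPM + 5 for each measured member in the 8 comparisons, one row each; points are members, the solid line their median and the dotted line the median of all measured genes, and the outer grey lines mark 2-fold. The members' median is -1.06 in MG against the endothelial mean and 0.31 in the mural types, and Ndufa4l2 and Cox4i2 lie beyond 5 units in the mural row.

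The 2 members that set the mural types apart were Ndufa4l2 and Cox4i2. Their coding sequences were set beside those of the broadly used copies Ndufa4 and Cox4i1, while the assignment of reads between copies was not tested. The coding sequences of Ndufa4 (chr6:11900292-11907497, minus strand, GRCm38, GENCODE M21) and Ndufa4l2 (chr10:127514967-127517154, plus strand) hold 246 and 261 bases before the stop codon and share 171 identical bases over 268 alignment columns (63.8%). They are shown here because Ndufa4l2 had the greatest distance between types of all members, with capitals marking their longest identical run, of 28 bases.
Ndufa4: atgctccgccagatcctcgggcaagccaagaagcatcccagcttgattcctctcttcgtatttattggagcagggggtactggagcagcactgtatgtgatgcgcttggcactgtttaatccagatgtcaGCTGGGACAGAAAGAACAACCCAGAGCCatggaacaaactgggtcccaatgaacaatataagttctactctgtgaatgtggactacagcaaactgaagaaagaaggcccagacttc
Ndufa4l2: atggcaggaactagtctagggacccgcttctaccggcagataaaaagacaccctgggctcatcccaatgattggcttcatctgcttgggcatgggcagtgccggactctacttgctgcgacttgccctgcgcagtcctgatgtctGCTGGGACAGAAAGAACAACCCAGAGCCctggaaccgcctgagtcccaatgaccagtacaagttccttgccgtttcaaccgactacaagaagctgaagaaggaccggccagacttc
Outside that run identical stretches are short. Cox4i1 (chr8:120668222-120674207, plus strand) and Cox4i2 (chr2:152754173-152765037, plus strand), at 62.7% identity over 541 columns, share no identical run longer than 14 bases.

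Ndufa4l2 reached 1263 CPM in PC (1242 to 1284) and 1191 in vSMC (1164 to 1218), with 359 CPM in aSMC. It stood at 135 CPM in FB, where 1 of 9 cells held 78.0% of its reads, at 16.3 CPM in aEC, and between 2.42 and 3.73 CPM in capilEC, vEC, CP-EC and MG. On the 4 plates it was at 1044 to 2209 CPM in PC and 780 to 2004 in vSMC, so these types overlapped each other and lay above all others. In aSMC it ran from 257 to 664 CPM on 3 plates and was at 3.76 CPM in the 7 aSMC cells of plate s169s. The log2 difference of the mural from the endothelial mean was 6.22 (plates 5.33 to 7.17).

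Over all cells, Ndufa4, the broadly used copy, was lowest where Ndufa4l2 was highest. It stood at 65.1 CPM in PC, with 66.7, 8.75, 109 and 5.24 CPM on plates s169s, s480s, s482s and s483s, and 43.3% of its PC reads came from 1 cell. vSMC held 153 CPM (plates 80.8 to 248) and MG 85.5 CPM (67.9 to 108). In the 3 endothelial types its plates ran from 180 to 405 CPM, and in aSMC, at 306 CPM, from 252 to 360. PC plates therefore lay below every endothelial and every aSMC plate, but overlapped with those of MG. The vSMC plates overlapped with the endothelial ones and lay just below those of aSMC. FB was at 242 CPM.

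Per kilobase of transcript, Ndufa4l2 made up 92.7% of the summed level of the pair in PC (plates 86.2 to 99.4), 83.6% in vSMC (74.6 to 89.3), 43.3% in aSMC (0.965 to 56.4) and 26.7% in FB. It made up 3.57% in aEC, 2.58% in MG and 0.861% in capilEC. With the length of all annotated exons the PC share was 96.1%, that of vSMC 90.8%, that of aSMC 59.6% and that of FB 41.3%, with 6.67% for aEC, 4.86% for MG and 1.65% for capilEC, so which copy made up more of the pair in aSMC depended on the length used. Within single cells thinned to 100000 reads, 28 of 54 PC cells held reads of Ndufa4l2 alone, 22 of both, 3 of Ndufa4 alone and 1 of neither. In vSMC the corresponding numbers were 12, 16, 1 and 0 of 29 cells, and in aSMC 3, 20, 15 and 3 of 41. In capilEC they were 27, 132, 538 and 90 of 787 cells. An Ndufa4l2 read was thus present in 20.2% of thinned capilEC cells (17.5 to 23.2%, exact binomial interval) and in 18.2% of thinned MG cells (12.2 to 25.7%). Both types stood under 4 CPM for the gene.

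Cox4i2 followed a like pattern, while its partner Cox4i1 was not lower. It was at 692 CPM in PC (677 to 708), 599 in vSMC (580 to 619) and 231 in aSMC (222 to 240), and its plates ran from 419 to 982, from 397 to 744 and from 49.5 to 388 CPM. In aEC, capilEC, vEC, FB and MG it was between 1.17 and 4.61 CPM. Cox4i1 stood at 842 CPM in PC, 807 in vSMC and 948 in aSMC, against 681 to 846 CPM in the 3 endothelial types, and its plates overlapped across all of these. Per kilobase Cox4i2 made up 46.2% of the pair in PC (43.4 to 52.4), 43.7% in vSMC (33.3 to 67.0), 20.3% in aSMC (4.92 to 26.7) and 0.350% in capilEC. With the length of all annotated exons in place of 1 transcript, the PC share was 61.8%, that of vSMC 59.4%, that of aSMC 32.4% and that of capilEC 0.658%. Of 54 thinned PC cells, 42 held reads of both genes, 10 of Cox4i1 alone and 2 of Cox4i2 alone.

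**Figure D4:**
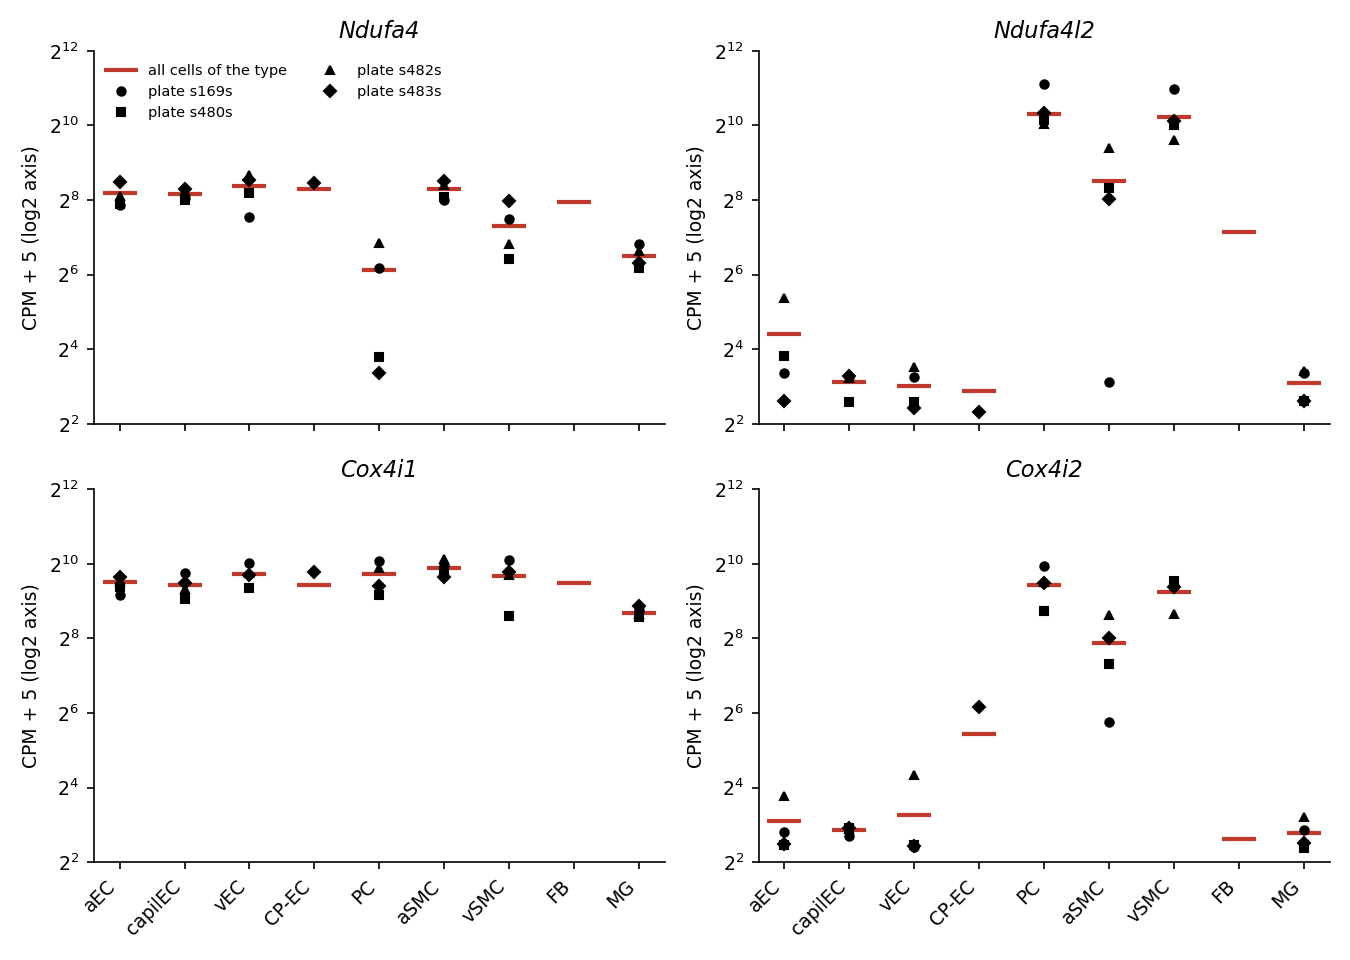
Levels of Ndufa4, Ndufa4l2, Cox4i1 and Cox4i2 in each type label as CPM + 5 on a log2 axis; red dashes are all cells of the type and black symbols are plates with at least 5 cells of it. Ndufa4l2 and Cox4i2 are high in PC, aSMC and vSMC, Ndufa4 is lowest in PC at 65.1 CPM, and Cox4i1 lies between 681 and 948 CPM outside MG.

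Marker reads of other classes differed between cells. When cells were dropped if markers of a foreign class passed 10% of the median level in that class, 17 of 54 PC, 31 of 41 aSMC and 16 of 29 vSMC cells remained. In those cells Ndufa4l2 was at 1166 CPM in PC, 1611 in vSMC and 300.0 in aSMC, and Cox4i2 at 635, 880 and 230.1 CPM. Ndufa4 was at 98.3 CPM in PC, 99.9 in vSMC and 304 in aSMC, against 280.4 in capilEC and 77.8 in MG. In the kept cells Ndufa4 was thus lowest in MG and Ndufa4l2 highest in vSMC. The higher Ndufa4 of vSMC than of PC over all cells, 1.17 units, was 0.02 in these cells, while that of aSMC stayed.

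Some cells outside the mural types held the restricted copies. Cox4i2 was at 38.4 CPM in CP-EC, 2.57 units above capilEC, but 126 of its 127 reads came from 1 cell, without which it was at 0.320 CPM. That cell had 21.2 CPM of mural markers. In aEC, 61.1% of the Ndufa4l2 reads came from 1 cell with 12678 CPM of mural markers. Neither level was thus spread over the cells of its type.

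The genes whose levels over the 9 types were most like those of Ndufa4l2, by Pearson r of log2(CPM + 5) among 9378 genes over 50 CPM in some type, were P2ry14, Vasn, Daam2, Pdgfrb and Ednra (all at 0.98). For Cox4i2 they were Gucy1b3 (0.99), Emid1 and Tmem200b (both 0.98), and Pdlim1 and Gm14005 (both 0.96). Pdgfrb encodes the platelet-derived growth factor receptor beta, and Gucy1b3 a subunit of the nitric oxide receptor guanylate cyclase. Pdgfrb is in the mural marker list, but it was at 510 CPM in FB, against 506 CPM in aSMC. The likeness is over 9 types, 3 of them mural.

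Within the mural types, aSMC and vSMC were each set against PC, so both comparisons share the PC cells. The members' median was 0.33 in aSMC (plates 0.21 to 0.74; all genes -0.15) and 0.13 in vSMC (plates -0.25 to 0.51; all genes -0.09). In aSMC 63 of 80 members were above PC. At least 2-fold higher were 5 (21.1% of all genes) and 3 were at least 2-fold lower (28.8% of all genes, and 49.9% in either direction). In vSMC the counts were 2 higher (21.3% of all genes) and 1 lower (28.7%, and 50% in either direction). In both, the members' share past 2-fold was below that of all genes, and this was not tested.

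Ndufa4, at 306 against 65.1 CPM in aSMC and PC (2.15, plates 1.58 to 5.15), and the core complex III subunit Uqcrc2, at 343 against 153 CPM (1.14), were higher in aSMC on every plate. Cox5a (276 against 126 CPM, 1.09) and Ndufb5 (267 against 125 CPM, 1.06) were so as well. Lower in aSMC were Ndufa4l2 (-1.80) and Cox4i2 (-1.56), on every plate, and Cox7a1 (-1.16), whose PC reads came from 2 cells. Atp5sl (2.62) rested on 7 of 41 aSMC cells, 1 of which held 69.4% of its reads. Without plate s483s Uqcrc2 (0.73), Cox5a (0.92), Ndufb5 (0.79) and Cox7a1 (-0.46) were under 2-fold, as was Cox5a without s169s (0.93). In vSMC, Uqcrc2 was at 424 CPM (1.44 above PC) and higher on every plate, Ndufa4 was 1.17 higher on 3 of 4 plates, and Cox6b2 differed by -1.68 from 2 cells with a read in each type and by 1.39 without plate s482s. Ndufa4 was at 0.62 without plate s483s. Cox4i2 and Ndufa4l2 differed between vSMC and PC by less than 2-fold.

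MG stood lowest for most of the chain. Against the same endothelial mean, which this comparison shares with the mural one, the members' median was -1.06 (plates -1.32 to -0.86), where all 12541 measured genes had a median of -0.26. At least 2-fold lower were 41 of 78 measured members, against 26.6% of all genes, and 1 was at least 2-fold higher (18.3% of all genes). In either direction that made 42 members, against 44.9% of all genes. Only 2 members were above 0. On plates, 22 of 78 members had all 4 MG values below all 12 endothelial values, against 4.34% of all genes, and 0 had them above, against 6.36% of all genes.

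The difference varied between the complexes. In complex I the median was -1.23, with 21 of 35 members at least 2-fold lower. Complex III had -1.18 (5 of 8), complex IV -1.003 (7 of 13) and complex V -0.90 (7 of 15). Complex II had -0.25, with only Sdhc (-1.17, and -0.92 without plate s482s; 112 CPM in MG) past 2-fold, and Sdhb at 223 against 244 CPM (-0.13). A split by textbook role was drawn up after these values had been seen, so the separation it shows is a description and no independent evidence. The 7 nuclear core subunits of complex I, which carry its flavin and iron-sulphur centres or line the quinone site, had a median of -0.34, with 1 past 2-fold. The 28 supernumerary subunits had -1.28, with 20 past 2-fold. In complex V the 5 subunits of the F1 head had -0.68, with 0 past 2-fold, and the other 10 had -1.32, with 7 past 2-fold.

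**Figure D5:**
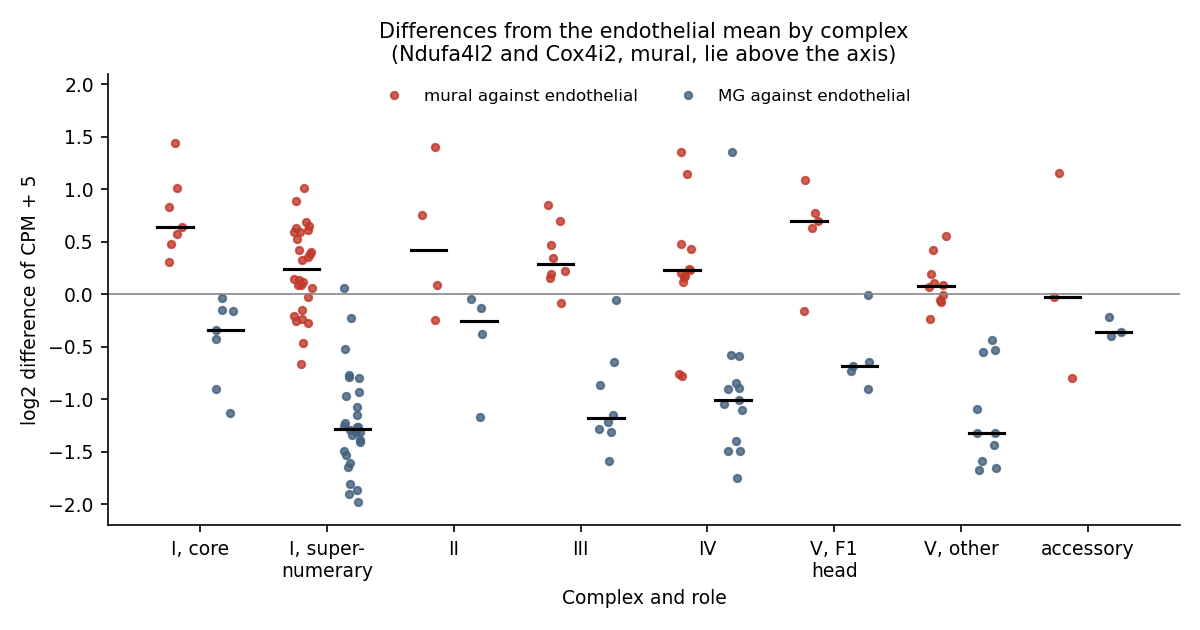
Log2 difference of CPM + 5 from the endothelial mean for each measured member, by complex and role, for the mural types (red) and MG (blue); black bars are medians, and the mural points of Ndufa4l2 (6.22) and Cox4i2 (5.91) lie above the axis. In MG the core subunits of complex I (-0.34) lie nearer to 0 than the supernumerary ones (-1.28). The F1 head of complex V (-0.68) lies nearer to 0 than the other complex V subunits (-1.32). In the mural types the core set and the F1 head also lie highest among the sets of their complexes. Both comparisons share the endothelial mean, so the 2 patterns are not separate observations.

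Transcript length differed between these sets as well. The core complex I set had a median length of 1623 bases and the supernumerary set 747.5 bases. The 45 members with transcripts under 1000 bases had a median difference of -1.27 in MG, and the 32 longer ones -0.64. Over all genes with an annotated protein-coding transcript, the medians were -0.54 for 650 short and -0.24 for 10282 longer genes. Short members were thus lower than long members, and short genes as a whole were lower than long ones by a smaller step. In the mural comparison the members' medians were 0.15 (short) and 0.58 (long), and those of all genes -0.08 and -0.04. The 74 cytosolic ribosomal proteins, which are short as well, had a median of -0.31 in MG. The part of length in the difference between roles was not tested.

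The members lowest in MG relative to endothelium were complex I subunits. Ndufa5, a subunit of its peripheral arm, was at 22.4 CPM in MG (20.8 to 24.1) against an endothelial mean of 103 CPM, a log2 difference of -1.98. Its plates ran from 13.5 to 31.7 CPM in MG and from 43.6 to 187 CPM in the endothelial types, with no overlap. Ndufs4, a subunit whose loss causes mitochondrial disease, was at 33.9 against 140 CPM (-1.90), Ndufc1 at 24.1 against 101 (-1.86) and Ndufa8 at 70.9 against 261 (-1.81). Ndufa4 followed at 85.5 against 299 CPM (-1.75), then the ATP synthase subunits Atp5j at 175 against 570 (-1.67) and Atp5k at 26.3 against 93.6 (-1.65), and the complex I subunit Ndufs5 at 33.7 against 116 (-1.64). Each of these 8 was lower on all 4 plates.

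Other members differed little or were not even over plates. Atp5a1 was at 483.2 CPM in MG and 487 CPM in the endothelial mean (-0.01), with MG plates from 445 to 507 CPM. Ndufa9 (0.06), Ndufs1 (-0.04), Sdha (-0.04) and Uqcrfs1 (-0.06) were as close over all cells, but their plate differences ran from -1.21 to 2.09 for Ndufs1, from -4.37 to 0.70 for Ndufa9, from -3.71 to 0.14 for Sdha and from -4.43 to 1.14 for Uqcrfs1. Cox4i1, the reference isoform of complex IV, was at 404 against 753 CPM (-0.89) and lower on all 4 plates, with MG plates from 379 to 460 CPM below all endothelial plates. The member higher in MG was Cox6a2, the heart and muscle isoform of Cox6a1, at 8.53 CPM (7.55 to 9.59) against 0.309 CPM. Its 278 reads came from 7 of 137 cells, and 1 cell held 40.3% of them, while Cox6a1 stood at 234 CPM in MG. Without plate s480s its difference was 0.997.

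The size of the MG difference moved with the scaling. Without scaling factors the median of all genes was -0.26, with TMM factors 0.04 and with DESeq2 size factors 0.10, and the members' median was -0.74 and -0.68 in the last 2. The number at least 2-fold lower was 25 with TMM factors (21.5% of all genes) and 19 with DESeq2 factors (20.7%). MG cells held 1161 CPM of endothelial markers, and after leaving out cells by marker content 122 of 137 remained, with 8839 CPM of member transcripts.

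Among the endothelial types, aEC, vEC and CP-EC were each compared with capilEC, which the 3 comparisons share. In aEC the median was 0.00, as was that of all genes. At least 2-fold higher was 1 member, Ndufa4l2 (1.28, and 0.15 without plate s482s; 5.82% of all genes), and 1 was lower, Ndufa8 (6.88%, and 12.7% in either direction). In vEC the median was 0.34 (plates -0.12 to 0.46; all genes 0.07), and 66 of 77 members were above capilEC, with 2 at least 2-fold higher (10.9% of all genes) and 0 lower (13.3%, and 24.3% in either direction). In the same comparison all 74 cytosolic ribosomal proteins were above 0, with a median of 0.50, while the mitochondrially encoded subunits had 0.11. With TMM factors the median of all genes was -0.11 and that of the members 0.15, so the members stayed above all genes. Split by transcript length without these factors, this held for longer transcripts only. Under 1000 bases, 44 members had a median of 0.36 and 619 genes 0.39. Among longer transcripts, 32 members had 0.26 and 9689 genes 0.02. The part of length was not tested.

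Ndufa8, a complex I subunit with paired cysteine motifs, was past 2-fold in both aEC and vEC, in opposite directions. It was at 486 CPM in vEC, 204 in capilEC and 93.3 in aEC. On plates s169s, s480s, s482s and s483s it was at 636, 268, 501 and 482.2 CPM in vEC, at 283, 156, 196 and 189 in capilEC, and at 69.3, 67.3, 86.8 and 121 in aEC. The order vEC, capilEC, aEC held on every plate. The aEC plates lay below all plates of both others, while the lowest vEC plate (268) lay under the highest capilEC plate (283). The log2 differences from capilEC were 1.23 in vEC and -1.09 in aEC, and the latter was -0.91 without plate s169s. The other vEC member past 2-fold, Cox6b2, had 76.9% of its 10.1 CPM from 1 cell and differed by 0.13 without plate s483s.

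In CP-EC the median was 0.16 against -0.38 for all genes. With a minimum of 50 CPM the medians were 0.16 for members and 0.19 for all genes, so the members were not above all genes there. At least 2-fold higher were 6 members (17.2% of all genes) and 4 were at least 2-fold lower (39.1%, and 56.2% in either direction). CP-EC had 17 cells, and several of these values rest on few of them. Ndufs1 was at 2.12 CPM from 7 reads (0.850 to 4.36) against 87.2 CPM in capilEC (-3.70), and Atp5s (-2.03), Sdha (-1.42) and Ndufv1 (-1.24) were lower too, with 1 cell holding 74.0% of the Sdha reads. Ndufa10 (445 against 122 CPM, 1.83) and Ndufa12 (227 against 78.3 CPM, 1.48), both of complex I, had reads in 9 and 11 cells, and Ndufs5 (244 against 108 CPM, 1.14) in 14. Atp5sl (1.19) and Uqcrfs1 (1.05) had reads in 5 and 7 cells, and Cox4i2 (2.57) rested on the single cell described above. All 12 measured complex IV members were above capilEC, with a median of 0.50. When each gene's top cell by count was left out, the members' median was -0.17 and that of all genes -1.55. For each gene this step removes 1 of 17 CP-EC cells but 1 of 787 capilEC cells, so it weighs more on CP-EC. The calls of Ndufa12, Ndufs5 and Sdha ended without plate s483s (0.35, 0.85 and -0.67), those of Atp5sl and Ndufv1 without s169s (0.65 and -0.90), and those of Uqcrfs1 and Ndufv1 without s482s (0.72 and -0.90).

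FB, with 9 cells, was set against the endothelial mean. The members' median was 0.04 against -0.63 for all genes. With a minimum of 50 CPM the medians were 0.03 for members and 0.08 for all genes, so the members were not above all genes there. At least 2-fold higher were 4 members (21.4% of all genes) and 5 were lower (44.3%, and 65.7% in either direction). Sdha, the flavoprotein of complex II, was at 660 against 229 CPM (1.51) with reads in 7 of 9 cells, and Ndufs7 at 520 against 224 CPM (1.20) in 8. Cox6b2 (3.75) had 73.1% and Ndufa4l2 (3.46) 78.0% of its reads from 1 cell. Lower were Cox5a (-2.24), Ndufv1 (-2.14), Ndufa8 (-1.97), Uqcrc2 (-1.72) and Uqcrb (-1.03). Of the 9 cells, 1 passed the limit on markers of other classes, and in it Ndufa4l2 was at 4.51 CPM, Sdha at 0 and Ndufs7 at 9.02, so these values describe a few cells only. Without plate s169s Sdha (0.77), Ndufs7 (0.93) and Uqcrb (-0.80) were under 2-fold, and without s480s Uqcrb was at -0.995.

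Other isoform families and complex II were read type by type. Among the 3 copies of the c-ring subunit of ATP synthase, which encode the same mature protein, Atp5g3 ranged from 81.5 CPM in MG to 391 in aSMC, Atp5g2 from 85.9 in MG to 172 in aSMC, and Atp5g1 from 75.3 in MG to 132 in PC. In complex IV, Cox6a1 ranged from 234 to 687 CPM and Cox6a2 stayed at or under 8.53. Cox7a2 ranged from 81.4 CPM in MG to 362 in CP-EC, and its muscle copy Cox7a1 from 0 to 6.17. Cox7a2l, a factor of supercomplex assembly, was at 241 CPM in PC and 446 in FB, with 262 in MG, so it did not share the low MG level. Cox6b1 stood between 156 CPM in MG and 430 in CP-EC. Of the succinate dehydrogenase subunits, Sdha ranged from 75.5 CPM in CP-EC to 660 in FB, Sdhb from 220 to 328, Sdhc from 112 in MG to 834 in aSMC, and Sdhd from 70.7 in CP-EC to 162 in FB.

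Genes that work beside the chain were followed as lists, whose counts stand against 17.3% of all genes at least 2-fold higher and 16.9% lower. In the mural comparison 2 of 13 enzymes of the citric acid cycle were at least 2-fold higher and 0 lower (median 0.77): Idh3a, a subunit of isocitrate dehydrogenase, at 139 against 53.5 CPM (1.30), and Dlst of the oxoglutarate dehydrogenase complex at 159 against 62.7 CPM (1.27). Citrate synthase, Cs, was at 318 against 184 CPM (0.77). Among 15 measured glycolysis genes, Ldhb (1.38) and Pfkp (1.10) were past 2-fold upward and 0 downward (median 0.34). Of 42 measured assembly factors, which build the complexes but are not part of them, 1 was at least 2-fold higher, Ndufaf4 (1.07), and 6 were lower, among them Bcs1l (-1.75), Ttc19 (-1.68) and Uqcc2 (-1.22) of complex III assembly (median -0.14). The 74 mitochondrial ribosomal proteins had a median of 0.00. Fatty acid oxidation had 2 of 11 higher and 2 lower (median 0.15), with Cpt1c at 2.58 and Cpt2 at -1.23.

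Oxygen-related genes differed in both directions in the mural types. Of 15 measured hypoxia-inducible factors and targets, 3 were at least 2-fold higher and 5 lower, against 17.3% and 16.9% of all genes (median -0.43, plates -1.04 to 0.28). Higher were P4ha1 (1.53), Hif3a (1.22) and Ero1l (1.05). Lower were Slc2a1, the glucose transporter of the blood-brain barrier, at 511 against 3206 CPM (-2.64), Ndrg1 (-1.57), Ankrd37 (-1.38), Pdk1 (-1.26) and Pfkfb3 (-1.24). Of 10 measured regulators of mitochondrial gene expression, Ppargc1b was past 2-fold (10.2 against 0.659 CPM, 1.42) and 0 were lower (median 0.30).

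The lists in MG stand against 26.6% of all genes at least 2-fold lower and 18.3% higher, and the genes named from them here were chosen after their values had been seen. The 10 measured mitochondrially encoded subunits had a median of -0.43, with 0 past 2-fold. Mitochondrial ribosomal proteins had -0.68, with 21 of 74 at least 2-fold lower, and assembly factors -0.50, with 12 of 42 lower and 1, Cox10, higher. Both counts are close to the share of all genes. Fatty acid oxidation had 5 of 10 lower (median -1.01), among them Cpt1a (-1.87) and Etfb (-1.65). The citric acid cycle had 2 of 13 lower, Ogdh (-1.27) and Fh1 (-1.01), and a median of -0.58. Glycolysis had a median of -0.24, with 2 of 16 higher and 3 lower. Ldhb was at 594 against 57.2 CPM (3.27) and Hk2, a hexokinase, at 91.0 against 0.1703 CPM, while Pfkp (-2.38), Pfkm (-2.34) and Gpi1 (-1.31) were lower. Gabpa, an ETS factor of mitochondrial genes, was lower (62.4 against 130 CPM, -1.01), and Pprc1, a PGC-1-related coactivator, higher (68.0 against 28.0 CPM, 1.15). Of 15 measured hypoxia-inducible factors and targets, 4 were higher and 6 lower (median -0.74). The higher ones were Hk2, which the glycolysis list holds too, Pfkfb3 (3.15), P4ha1 (2.92) and Pdk1 (1.35), and Ndrg1 (-4.55) was the lowest of the list.

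Promoters of the members were searched for short motifs. A window from 250 bases before to 50 after the start was given by RefSeq (GRCm38.p6) for 66 members and 27025 genes in all. Searched on both strands, the NRF1 core TGCGCA was in 17 of the 66 windows (25.8%, against 8.06% of all), the ETS core CCGGAAG in 15 (22.7%, against 9.12%) and the YY1 core AAGATGG in 9 (13.6%, against 6.48%). The hypoxia response core ACGTG was in 16 (24.2%, against 19.7%) and the RBPJ core TGGGAA in 14 (21.2%, against 25.5%). Ndufa4l2, Cox4i2 and Cox4i1 had no window, so no motif was searched for in them. A match is a string of letters and not a measured site. Sdhd had the most NRF1, ETS and YY1 matches in the 250 bases before its start. Ndufa4, like most of the 66 members, held none of these there. No link between such matches and the levels in the types was tested. Both are shown with the matches in capitals (Sdhd at chr9:50603850-50604099 and Ndufa4 at chr6:11907451-11907700, both on the minus strand).
Sdhd: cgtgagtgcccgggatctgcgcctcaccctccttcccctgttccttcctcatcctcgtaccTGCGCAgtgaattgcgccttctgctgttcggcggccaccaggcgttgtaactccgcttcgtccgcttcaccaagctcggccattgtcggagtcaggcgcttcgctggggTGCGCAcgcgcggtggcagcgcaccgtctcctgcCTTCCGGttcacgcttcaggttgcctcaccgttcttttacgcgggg
Ndufa4: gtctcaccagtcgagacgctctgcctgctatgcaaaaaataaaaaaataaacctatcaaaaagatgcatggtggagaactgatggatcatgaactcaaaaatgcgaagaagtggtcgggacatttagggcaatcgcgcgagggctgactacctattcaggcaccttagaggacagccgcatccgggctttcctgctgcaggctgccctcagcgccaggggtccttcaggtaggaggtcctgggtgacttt
In Sdhd the capitals mark the NRF1 core at 2 places, a string that is its own reverse complement, and the ETS core once as its reverse complement CTTCCGG.

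The plates were not alike in capilEC, the type with enough cells to compare them. On plate s169s, the plate of lowest depth at a median of 159000 reads per cell, the members had a median 0.31 above that of the other plates, where all genes had 0.00 and 23.1% of all genes were at least 2-fold apart. Sdhd (1.60), Uqcrc2 (1.11) and Cox7a2l (1.05) were past 2-fold there and 0 were lower. This difference between plates of 1 type is as large as the members' median in the mural comparison (0.31), whose values within plates ran from 0.05 to 0.52.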

How the data were processed

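The authors deposited whole-number read counts per gene and cell from Smart-seq2 libraries, with 1 sample for each of 9 type labels. Per the submitters' processing notes, the tools were SAMtools 1.16.1, featureCounts and Subread 1.4.6-p5; GRCm38 and GRCm39 appear there as builds with no stated role. The aligner, and whether counting used strand, are not given in the sources used here. All cell columns carried a label, and 0 columns were left unused. No cell filter or doublet removal was added here.

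From these counts, the reads of all cells with a label were added up and divided by their total per 1000000 (CPM). Differences are on the log2(CPM + 5) scale, which understates those of low genes, for genes of at least 5 CPM in either group. A 2-fold mark (1 log2 unit) was used in place of a test, since each type was 1 sample. A leading type had to exceed the second-highest 4-fold. Plates with at least 5 cells of a type gave the spread. Shares of cells used 100000 reads drawn per cell. Intervals are at 95% and cover counting error only, and a count of 0 was read as allowing up to 3 counts.

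Members and lists were chosen with earlier results of these data known. Named were members at least 2-fold apart in a comparison, or the 8 largest per direction that held on every plate, those nearest 0, members with paralogs, complex II, and, from other lists, genes 2-fold apart in the mural comparison, up to 6 per list and direction. Examples were taken from these. The values of 1 member are not reported here by name, though it is part of the counts and medians. The split by subunit role was drawn up after values had been seen. Lengths and coding sequences came from GENCODE M21, promoters from RefSeq (GRCm38.p6).

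Alternatives were TMM factors (edgeR 4.0.16) and DESeq2 1.42.0 size factors in R 4.3.3, used for scaling only, library size without mitochondrial and ribosomal RNA rows, equal weight for each cell, pseudocounts of 1 and 20 CPM, no minimum and 50 CPM, leaving out each plate, leaving out cells with over 10% of another class's marker level, and leaving out the cell with the largest count. The calculations were tested on simulated data. Python used numpy 2.4.6, scipy 1.17.1, pandas 2.3.3 and matplotlib 3.10.9.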

Additional observations from a re-analysis of the deposited data

How the results depend on the processing

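Each type was 1 sample, so spread came only from plates and cells, and FB (9 cells) and CP-EC (17) limit what can be read. No paired analysis was possible because each type was 1 sample with no replicate number; differences within plates stand beside the results. Over the alternatives, 188 values of medians and counts stayed within the limits set for them and 50 moved. Of 910 values for 65 pairs of a named member and a comparison, 835 had no change counted, 67 fell below 2-fold and 3 rose past it. In 5 a difference past 2-fold turned, and 30 pairs had any such change. A turn was counted only for differences of at least 2-fold, so smaller ones can have changed sign within the 835. The causes were not tested.

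The 5 that turned were Cox4i2 in CP-EC (-0.52 without plate s483s and -0.36 without its top cell by count, -0.52 to 2.88 over plates), Cox6b2 in vSMC (1.39 without plate s482s, -2.94 to 1.39 over plates), and, in the 1 FB cell without other markers, Sdha (-5.54) and Ndufs7 (-4.01). The 3 that passed 2-fold were Atp5sl in the mural types (-1.84 without plate s482s, -1.39 without cells with other markers, -1.76 without its top cell). Those that fell below came in all 8 comparisons, among them 14 with a pseudocount of 20 CPM, 10 without the top cell and 9 each without plates s169s and s483s. Without cells with other markers they included Ndufa4 in vSMC (0.02), Ndufa4l2 in FB (0.14) and aEC (0.66), Cox5a (0.73) and Atp5sl (0.66) in aSMC and Cox6b2 in vEC (0.94).

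The members' median became, with DESeq2 factors, 0.53 in the mural types, -0.68 in MG, 0.47 in FB and 0.47 in CP-EC, where the median of all genes was 0.16, 0.10, -0.22 and -0.08. With TMM factors it became -0.74 in MG and 0.028 in CP-EC (all genes 0.04 and -0.50). Without the largest-count cell, a step that weighs more on types of few cells, it became -0.17 in CP-EC and -0.25 in FB (all genes -1.55 and -1.69). Without cells with other markers it became -1.35 in FB (all genes -2.30). Leaving out each plate gave 0.047 to 0.296 in CP-EC and -0.073 to 0.184 in FB. In vSMC it gave -0.047 without s483s and 0.43 without s482s, and in aSMC 0.55 without s482s (all genes -0.22, -0.03 and 0.03).

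The number of members past 2-fold (10 in CP-EC, 9 in FB, 42 in MG, 2 in aEC, 8 in aSMC, 10 in the mural types, 2 in vEC and 3 in vSMC) became, with DESeq2 factors, 18 in CP-EC, 16 in FB and 20 in MG, and with TMM factors 26 in MG, 14 in aSMC and 1 in vEC. The shares of all genes higher and lower moved too. With DESeq2 factors they were 23.1% and 35.4% in CP-EC, 28.05% and 40.1% in FB, and 24% and 20.7% in MG. With TMM factors they were 22.6% and 21.5% in MG, 23.8% and 26.2% in aSMC, and 8.16% and 16.1% in vEC. Without cells with other markers the number of members became 54 in FB, 14 in aSMC, 16 in vSMC, 1 in aEC and 1 in vEC. The shares of all genes higher and lower were then 14.3% and 77.85% in FB and 33.3% and 29.9% in aSMC. They were 28.25% and 38.96% in vSMC, 5.74% and 7.19% in aEC, and 10.96% and 13.52% in vEC. Without the largest-count cell the number of members became 21 in FB (9.03% of all genes higher and 69.1% lower) and 1 in aEC (3.18% and 13.2%). Equal weight gave 1 in aEC (6.75% of all genes higher and 7.39% lower) and 8 in vSMC (21.7% and 30.4%). A pseudocount of 20 CPM gave 0 in aEC, 6 in the mural types and 1 in vEC, and a minimum of 50 CPM gave 1 in aEC and 1 in vEC. With that pseudocount the shares of all genes were 1.69% and 1.35% in aEC, 8.65% and 7.62% in the mural types, and 3.67% and 3.88% in vEC. With that minimum they were 4.49% and 3.45% in aEC and 8.83% and 7.98% in vEC. Leaving out each plate gave 11 to 18 in CP-EC (18 without s483s), 10 to 23 in FB (14 without s169s, 23 without s483s), 1 to 3 in aEC (1 without s169s or s482s, 3 without s480s), 5 to 21 in aSMC (21 without s482s, 5 without s483s), 1 to 5 in vEC (5 without s169s, 1 without s483s) and 3 to 10 in vSMC (6 without s169s, 10 without s482s). Shares of all genes without s483s were 18.3% and 54.85% in CP-EC, 20.97% and 53.1% in FB, 22.2% and 31.3% in aSMC, and 12.4% and 19.1% in vEC. Without s169s they were 21.7% and 51.4% in FB, 12.4% and 14.9% in vEC, and 22.9% and 30.6% in vSMC. Without s482s they were 30.4% and 28.9% in aSMC and 28.9% and 31.2% in vSMC. In aEC they lay between 6.19% and 11.2% without s169s, s480s or s482s. The number of members with a leading type, 0, became 1 with a pseudocount of 1 CPM (Cox6a2), with DESeq2 factors and without cells with other markers (Cox6b2), and 0 to 1 over plates (Cox6b2 without s169s).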
